A study of Mus musculus with 8 samples.

Results

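ATAC-seq uses the Tn5 transposase to cut and tag open chromatin, and 4 cell lines of mouse melanoma were profiled with it in 8 libraries. Of 148664 regions counted by the authors, 126838 were distal, meaning autosomal and more than 1 kb from either end of any protein-coding gene. The regions described here are the 3515 of those (2.77%) that were higher in line 119 than in every library of the other 3 lines by the rule given next. They were chosen on CPM, the count divided by the library's total and scaled to 1000000. A region was private to line 119 when the lower of its 2 line 119 libraries had at least 4 CPM and at least 3 times the highest CPM among the other 6 libraries. All values of line 119 against the other lines in these regions were used in the choice, so they are given as a description without a test. By edgeR's test, described below, every member was called higher than in line 112, 113 and 73, against 25.3%, 30.1% and 29.6% of all regions, as the choice fixes. Of all regions, 23.4%, 31% and 30.7% were called lower in the same 3 pairs.

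Lines 119 and 73 carried the Stat3fl genotype, labelled wild type, and lines 112 and 113 the Stat3Δ genotype, labelled STAT3 knockout. Each line had 2 libraries of 50000 cells, with fragments above 1200 bp excluded by size selection. Every line had been grown from lymph node cells of mice whose skin melanoma appeared at about 25 to 30 weeks of age, and none was treated. The labels call a line both a pool of primary cells and a clone, and they give its replicates as biological replicates without naming separate cultures or passages. The titles also carry a p number that differs between the 4 lines (p14 for line 119, p18 for 112, p44 for 113 and p68 for 73). Its meaning is not stated, and it cannot be told apart from the line. The number of mice, their strain, the driver of the melanoma and the Cre used to delete Stat3 are not given in the sources used here. Since 1 line is 1 unit of biology and line 119 is the only one in its class here, nothing below can be ascribed to the wild-type genotype, and p-values measure the spread between libraries of a line. Coordinates are those of mm10 (GRCm38), counted from 1.

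Distal open regions hold most enhancers, the elements that raise transcription of genes on the same chromosome when bound by combinations of transcription factors. Enhancer use differs more between cell types and cell states than promoter use does, and melanoma cells are known to move between a pigmented state under MITF and SOX10 and less differentiated states resembling neural crest or mesenchyme. STAT3 is a transcription factor that cytokine and growth factor receptors activate.

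Library totals ran from 2697546 to 5029386 counts in the other 3 lines and were 7464336 and 5736939 in line 119, the deepest libraries of the series. The authors' peak calls were also most numerous in line 119 (94906 and 85498, against 20387 to 56497). The gene end of the targeted gene, a region at Stat3 (chromosome 11, 100939208 to 100939818), had 18.9 and 18.8 CPM in line 119 and between 25.6 and 34.8 CPM in the other 6 libraries. The part of Stat3 that was deleted is not given in the sources used here, so this region does not check the genotype. Of 7 genes that define the melanoma cell, 4 had at least 4 CPM at a gene end in line 119: Pmel with 33.6, Mitf with 19.2, Sox10 with 18 and Tyr with 5.00. Dct had 3.86, Tyrp1 1.06 and Mlana 0.758 CPM there. Summed over the 7, line 119 had 81.5 CPM, line 73 had 110, line 112 had 163 and line 113 had 213. Markers of other cell types had open gene ends too. Of 6 T cell markers 4 had a counted region, with a sum of 38.3 CPM in line 119 against 30.7 to 69.8 CPM in the others, led by Cd2 (20.1 CPM in line 119) and Cd4 (14.7). Of 5 B cell markers 3 had one, with 18.8 against 17.2 to 22.3 CPM, led by Cd79a (10.7). Of 6 myeloid markers 3 had one, with 14.2 against 21.7 to 23.3 CPM, led by Spi1 (11.4), while Ptprc, Csf1r and Itgam had none. Of 6 endothelial markers only Kdr had one, and it was highest in line 119 at 7.65 against 4.04 to 5.17 CPM. The sums were 52.0 against 56.7 to 93.2 CPM for 7 of 7 fibroblast markers, 34.8 against 23.7 to 59.0 CPM for 3 of 5 Schwann cell markers and 6.74 against 5.91 to 12.6 CPM for 3 of 5 keratinocyte markers. The part of other cell types in the private regions was not tested.

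The sequences of promoters were at hand for a few private regions, those that meet a RefSeq promoter window (250 bases before to 50 after a start site, GRCm38.p6). These were 21 of 3515 regions (0.597%), against 2.27% of all distal regions. Of the 21, 18 met windows of long noncoding RNA genes and 3 met windows of internal starts of protein-coding genes. The start site itself lay inside the region for 20 of the 22 windows met. The 22 windows met are the only members whose letters could be read, and 6 are shown to let the reader see what kind of start this is. The first 3 are the protein-coding starts and the last 3 are noncoding starts whose window holds an AP-1 motif. Capitals mark every match to a searched motif on either strand.
R3hdm1, chr1:128141737-128142036, + strand: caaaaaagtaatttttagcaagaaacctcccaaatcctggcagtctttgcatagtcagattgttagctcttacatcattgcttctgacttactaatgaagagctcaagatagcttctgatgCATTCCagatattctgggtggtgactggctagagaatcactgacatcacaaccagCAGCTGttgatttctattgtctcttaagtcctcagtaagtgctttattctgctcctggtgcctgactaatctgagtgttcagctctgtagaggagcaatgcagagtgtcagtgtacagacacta
Fmo5, chr3:97628769-97629068, + strand: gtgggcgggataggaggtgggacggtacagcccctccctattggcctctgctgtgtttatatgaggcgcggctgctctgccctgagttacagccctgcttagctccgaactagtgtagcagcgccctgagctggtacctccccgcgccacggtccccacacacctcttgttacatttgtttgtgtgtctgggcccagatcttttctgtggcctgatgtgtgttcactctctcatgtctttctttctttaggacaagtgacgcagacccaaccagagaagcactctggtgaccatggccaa
Zbtb20, chr16:43247034-43247333, + strand: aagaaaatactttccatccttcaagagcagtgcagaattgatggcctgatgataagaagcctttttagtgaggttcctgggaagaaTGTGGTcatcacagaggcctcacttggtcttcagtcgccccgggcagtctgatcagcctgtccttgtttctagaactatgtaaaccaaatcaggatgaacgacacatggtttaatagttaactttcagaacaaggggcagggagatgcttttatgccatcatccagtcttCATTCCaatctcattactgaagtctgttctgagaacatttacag
1700023F02Rik, chr10:66200442-66200741, - strand: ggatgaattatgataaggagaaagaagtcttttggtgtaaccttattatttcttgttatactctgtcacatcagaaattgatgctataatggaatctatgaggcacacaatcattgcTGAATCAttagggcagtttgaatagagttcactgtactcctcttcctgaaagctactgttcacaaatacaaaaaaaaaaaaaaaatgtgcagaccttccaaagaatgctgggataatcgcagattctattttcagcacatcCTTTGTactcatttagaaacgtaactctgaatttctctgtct
Gm30886, chr4:22938325-22938624, + strand: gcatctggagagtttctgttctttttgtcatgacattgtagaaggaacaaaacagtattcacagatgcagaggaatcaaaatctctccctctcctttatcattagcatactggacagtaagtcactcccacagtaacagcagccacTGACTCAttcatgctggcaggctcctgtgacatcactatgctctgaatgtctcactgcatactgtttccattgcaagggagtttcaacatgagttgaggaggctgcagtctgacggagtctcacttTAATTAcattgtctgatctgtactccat
Gm33045, chr13:110627722-110628021, + strand: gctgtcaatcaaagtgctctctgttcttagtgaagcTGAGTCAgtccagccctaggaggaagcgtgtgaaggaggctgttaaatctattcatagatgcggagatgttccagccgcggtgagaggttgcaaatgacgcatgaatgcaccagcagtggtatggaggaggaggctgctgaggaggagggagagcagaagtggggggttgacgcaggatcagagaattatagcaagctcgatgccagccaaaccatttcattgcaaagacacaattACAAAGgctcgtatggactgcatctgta

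The searched letters were TGANTCA for AP-1 factors, which bind many enhancers. The letters of TEAD were GGAATG and those of RUNX were TGTGGT. MITF and related factors bind the E-box CACGTG, and other basic helix-loop-helix factors bind the E-box CAGCTG. SOX factors were represented by the letters ACAAAG and ETS factors by the letters GGAAGT. FOX was searched as TGTTTAC, and GATA was searched as the letters AGATAA. Homeobox factors were searched as TAATTA, and ZEB repressors were searched as CAGGTA. Each was sought on both strands, and 1 base could belong to more than 1 match. TGANTCA was present in 7 of the 22 windows (31.8%), against 7.81% of all 32851 RefSeq windows and 11.7% of the 2333 windows met by a distal region with at least 4 CPM in both line 119 libraries. ACAAAG was present in 8 (36.4%), against 18.7% and 18.6%, and CAGCTG in 5 (22.7%), against 16.3% and 19.1%. TGTGGT was present in 4 (18.2%), against 16.8% and 15.8%, and TAATTA in 2 (9.09%), against 5.29% and 3.13%. GGAATG was present in 2 (9.09%), against 14.7% and 16.0%, and GGAAGT in 3 (13.6%), against 23.8% and 22.9%. AGATAA was present in 2 (9.09%), against 11.2% and 7.12%, and CAGGTA in 2 (9.09%), against 12.0% and 6.34%. CACGTG was present in 1 (4.55%), against 7.15% and 8.44%, and TGTTTAC in 0, against 3.65% and 2.96%. The median GC content of the 22 windows was 43.3%, below the 52.7% of all windows and the 57.7% of windows met by distal regions open in line 119. With 22 windows, 2 of them overlapping on opposite strands, these shares are a description. Those 2 hold the same TGANTCA match and the same TAATTA match, each counted in both.

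The 3 regions at protein-coding starts lay near or below the median of all members, which was 10.6 CPM for the lower line 119 library. The region at the internal start of R3hdm1 had 11.8 and 9.76 CPM in line 119, against 1.00 and 2.22 in line 112, 0.398 and 3.15 in line 113, with 0.916 and 1.52 in line 73. The region at Fmo5, a flavin-containing monooxygenase gene, had 7.10 and 7.15 CPM in line 119 and 0.674 to 1.85 CPM elsewhere. The region at Zbtb20, which encodes a zinc-finger repressor, had 6.16 and 6.45 CPM in line 119 and 0.458 to 1.77 CPM elsewhere. The noncoding start with the widest gap was that of 1700023F02Rik, 808 kb from the nearest protein-coding gene end. It had 13.7 and 13.1 CPM in line 119, while the other 6 libraries had 0.199 to 0.674 CPM, a ratio of 19.4 between the lower line 119 library and the highest other one.

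In line 119 the 3515 private regions ran from 4.01 to 63.1 CPM, and in the other libraries from 0 to 16.0 CPM. Their median was 11.3 CPM in replicate 1 of line 119 and 11.2 CPM in replicate 2. In the other lines it was 1.5 and 1.85 CPM (112), 0.994 and 1.123 CPM (113) and 0.916 and 1.01 CPM (73). The medians in the other 6 libraries lay below the median of all distal regions in the same library, which was 2.06 to 3.71 CPM. The private regions took 4.51% and 4.56% of the counts of the line 119 libraries and 0.456% to 0.799% of those of the others.

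**Figure D1:**
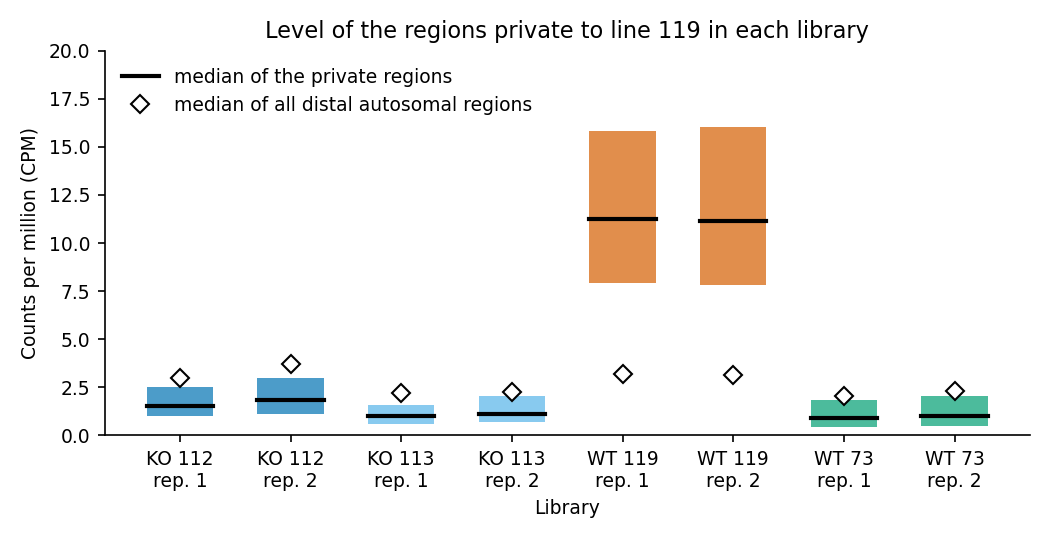
Level of the 3515 regions private to line 119 in each of the 8 libraries, in CPM. Bars span the lower to the upper quartile, black lines are medians and diamonds are medians of all 126838 distal regions. The line 119 medians are 11.3 and 11.2 CPM and the other 6 run from 0.916 to 1.85 CPM.

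The line 119 replicates gave close values in these regions, which were chosen on the lower of the 2. The SD of the log2 ratio of replicate 2 to replicate 1 was 0.217. It was 0.260 over the 48640 distal regions with at least 4 CPM in both line 119 libraries. In 53 private regions (1.51%) the replicates differed by over 1.5 times. The correlation of their log2 CPM across the members was 0.955, which is across regions of 2 libraries and not across independent samples. Over all regions with at least 10 counts, the replicates of line 119 were nearer to counting error than those of the other lines, with a chi-square per degree of freedom of 1.07 against 1.36 to 1.98. They still differed beyond it (chi-square p 4.5e-67 over 134605 regions) and were kept as 2 libraries.

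The gap to the other lines was moderate for most members. The ratio of the lower line 119 library to the highest other library had a median of 4.00 and quartiles of 3.40 and 5.13, and 1768 members (50.3%) lay between 3 and 4. The ratio was at least 5 in 948 members and at least 10 in 92. Private did not mean closed elsewhere: 2990 members had at least 1 count in each of the other 6 libraries, and 361 had a pooled level below 1 CPM in all 3 other lines. Just inside the fold threshold lay a region inside Dock2 with 23.4 CPM in line 119 and 7.78 CPM in the highest other library, a ratio of 3.00037. Just outside it lay a region near Bmper with 11.1 and 3.71 CPM, a ratio of 2.99955. A further 4245 distal regions with at least 4 CPM had ratios between 2 and 3, and 321 passed the fold but fell below 4 CPM, such as a region near Nbas with 3.89 CPM.

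The authors' peak calls, made per library, described the same regions. They came from the same libraries as the rule's counts, so peaks and high enrichment in line 119 largely follow from the choice. Of 3515 members, 3505 (99.7%) overlapped a peak in both line 119 libraries, and 3014 (85.7%) did so with no peak in the other 6. That pattern of calls was common: 19957 distal regions (15.7%) had it, and members made up 15.1% of them. Of all distal regions, 58.4% overlapped a peak in replicate 1 of line 119 and 51.9% in replicate 2. The authors' fold enrichment at members had medians of 10.7 and 9.99 in the line 119 lists, against 6.52 and 6.38 over all distal regions with a peak in those lists. Members were no wider than other regions. Their median width was 536 bp, against 568 bp for distal regions and 613 bp for those with 4 CPM in line 119.

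The strongest private region by its lower line 119 value lay 79.1 kb from Unc5cl (chromosome 17, 48618796 to 48619725). It had 63.1 and 58.0 CPM in line 119, against 16.0 and 11.9 in line 112, 3.38 and 6.07 in line 113, with 0.916 and 2.53 in line 73. A region 94.2 kb from Adgrd1, an adhesion G protein-coupled receptor gene (chromosome 5, 129298825 to 129299765), had 53.6 and 55.4 CPM in line 119. The other 6 libraries had 2.03 to 11.7 CPM there, with line 113 highest. In both regions line 119 lay apart from every other library, while the line in second place changed. Line 73 was in second place at a region inside Tbc1d9 (chromosome 8, 83177564 to 83178560), with 12.1 and 13.7 CPM against 50.0 and 52.5 CPM in line 119. It was also highest of the others 8.13 kb from Myh13, a skeletal muscle myosin gene, with 7.78 and 10.4 CPM against 48.5 and 46.2 CPM.

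The widest ratio among the 10 strongest was that of a region inside Fto, which encodes an RNA demethylase and whose introns are known to hold distant enhancers (chromosome 8, 91615486 to 91616129). It had 43.0 and 43.2 CPM in line 119, against 2.50 and 2.59 in line 112, 1.99 and 2.70 in line 113, with 2.52 and 3.80 in line 73. The 3 other lines overlapped there, and the ratio was 11.3. A region 294 kb from Ss18, a gene of a BAF chromatin-remodelling subunit, had 43.4 and 46.4 CPM in line 119 and 1.79 to 8.11 CPM elsewhere. A region 310 kb from Dhx35 had 42.6 and 43.4 CPM in line 119, with 0.687 and 1.27 CPM in line 73 and 1.59 to 7.41 CPM in the knockout lines. Of the 10, 3 lay inside a gene and 2 lay more than 100 kb from any gene end.

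**Figure D2:**
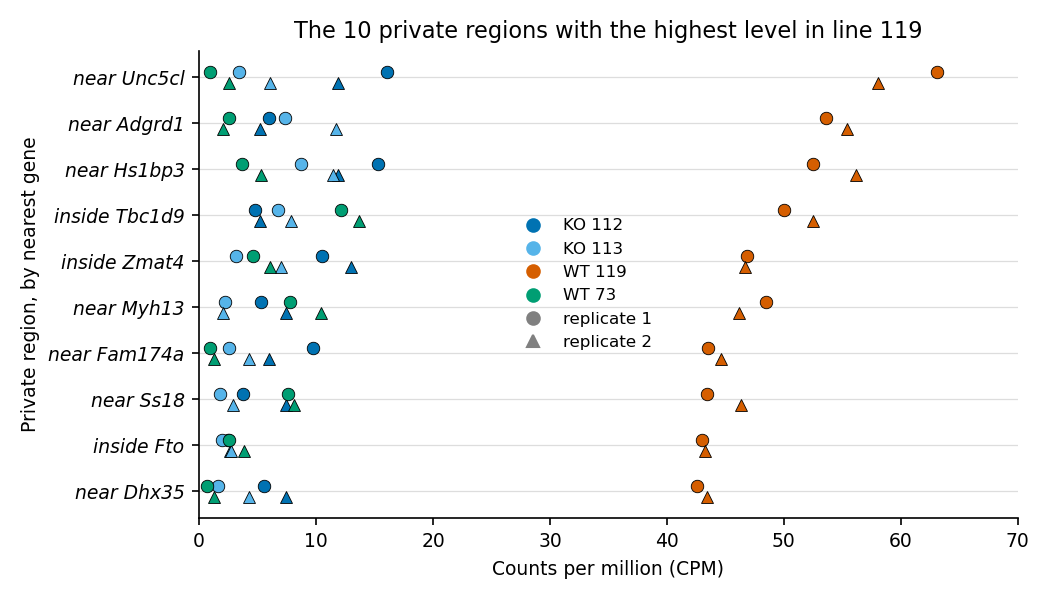
The 10 private regions with the highest lower value in line 119, named by the nearest gene, with CPM on the horizontal axis. Each point is 1 library, coloured by line, with circles for replicate 1 and triangles for replicate 2. All line 119 points lie between 42.6 and 63.1 CPM and all others at or below 16.0 CPM.

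The second-highest line was most often 112. The highest other library belonged to line 112 in 2177 members (61.9%), to line 73 in 730 (20.8%) and to line 113 in 608 (17.3%). Line 112 also had the highest pooled median, 1.64 CPM against 1.05 in line 113 and 1.08 in line 73. The order was the same over the 48640 distal regions with at least 4 CPM in both line 119 libraries, at 5.08, 3.90 and 3.97 CPM, so it was not particular to the members. The rule caps the levels of these 3 lines, so counts of calls among them are shaped by the choice and are given as a description. All members passed the filter on low counts through line 119, and 1076 would have had 10 counts in 2 of the other libraries. By edgeR's quasi-likelihood test with Benjamini-Hochberg adjustment over 134068 regions, 182 members (5.18%) were higher in line 112 than in line 113 and 67 (1.91%) lower, against 8.95% and 16.5% of all regions. Against line 73, line 112 was higher in 383 (10.9%) and lower in 137 (3.90%), against 25.4% and 27% of all regions. Line 113 was higher than line 73 in 346 (9.84%) and lower in 319 (9.08%), against 27.1% and 27.4%. All 6 shares lay below those of all regions, whose levels are not capped, and nothing is read from that. In none of the 3 pairs did 2515 members (71.6%) pass. The share of all regions was not taken for that count, and nothing is read from it either. The alternatives that follow are given without the share of all regions under the same setting, so nothing is read from their shifts. With library totals in place of the TMM factors (a correction for composition), the members higher in line 112 than in line 113 numbered 341 and those lower 28. DESeq2's Wald test gave 39 and 25. Without line 113 replicate 1 the higher count was 54, and without line 112 replicate 2 it was 121. The members lower in line 112 than in line 113 numbered 35 without line 112 replicate 1, and 32 and 38 without replicates 1 and 2 of line 113. Those higher in line 112 than in line 73 numbered 240 without line 112 replicate 1, and 209 and 231 without replicates 1 and 2 of line 73. Those lower numbered 82 without line 112 replicate 1 and 67 without line 73 replicate 2. Line 113 was higher than line 73 in 199 members without its replicate 2 and in 227 without either replicate of line 73. It was lower in 199 without its replicate 1 and in 196 without line 73 replicate 2. By genotype, line 73 was above both knockout lines in 84 members (2.39%) and below both in 173 (4.92%), against 20.1% and 18.8% of all regions.

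Private regions lay far from genes. Their median distance to the nearest protein-coding gene end was 72.4 kb, against 30.9 kb for all distal regions and 28.0 kb for the 48640 with at least 4 CPM in both line 119 libraries. More than 100 kb separated 1462 members (41.6%) from any gene end, against 22.6% of distal regions. More than 500 kb separated 259 members (7.37%), against 2.68%, and 42.6% lay inside a gene, against 52.0%. The share of distal regions that were private to line 119 was 1.44% at 1 to 10 kb from a gene end, 2.38% at 10 to 100 kb, 4.75% at 100 to 500 kb and 7.61% beyond 500 kb.

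The same rule applied to line 73 gave 2628 private regions with a median distance of 37.7 kb. Their share was 1.64%, 2.16%, 2.34% and 2.06% in the same 4 classes. The rule gave 330 regions in line 113 with a median of 57.9 kb, of which 38.8% lay beyond 100 kb and 6.67% beyond 500 kb, close to the shares in line 119. It gave 384 in line 112 with a median of 30.7 kb, of which 24.2% and 4.43% lay that far, against 25.2% and 2.66% for line 73. Regions of the same libraries are not independent, so these distances were not tested against each other. The members' median distance ran from 56.7 kb with a fold of 2 to 88.1 kb with a fold of 5.

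**Figure D3:**
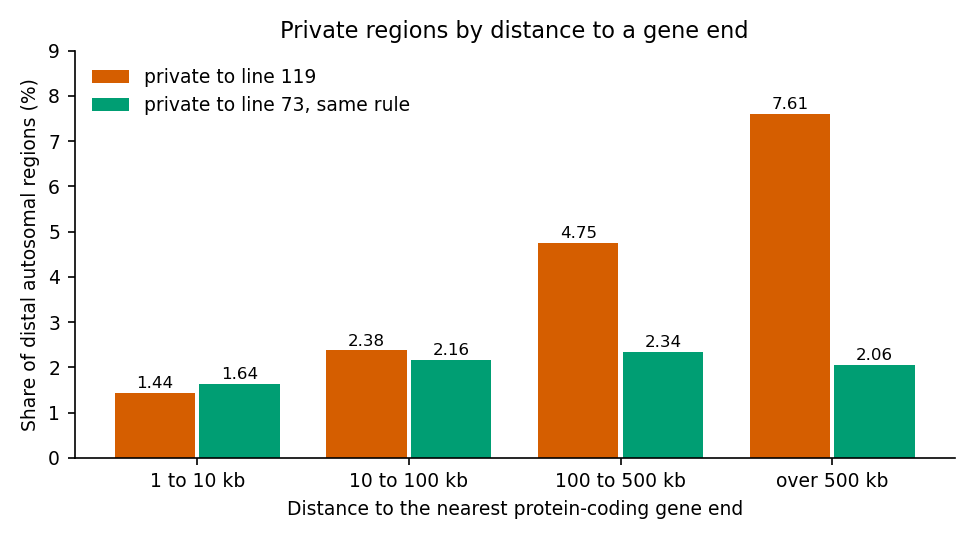
Percentage of distal autosomal regions that were private, by distance from the nearest protein-coding gene end, for line 119 (orange) and for line 73 under the same rule (green). The line 119 share is 1.44% in the nearest class and 7.61% in the farthest, and the line 73 share stays between 1.64% and 2.34%.

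The relation with distance was also seen in regions that were not members. For distal regions outside the rule, the log2 fold changes of line 119 over each other line were averaged over the 3 pairs. The median of this average was -0.21 at 1 to 10 kb, 0.04 at 10 to 100 kb, 0.45 at 100 to 500 kb and 0.99 beyond 500 kb. The order held in each pair of lines, with medians beyond 500 kb of 0.65 over line 112, 0.88 over line 113 and 1.09 over line 73. Of these non-members, 8.22%, 10.5%, 16.0% and 22.9% were higher in line 119 in all 3 pairs, against 11.2% of all non-member distal regions and 12.6% of all regions tested, members included. The farther classes thus held more regions higher in line 119 whether or not they met the rule. Gene ends in turn were lower in line 119, with medians over all genes of -0.18, -0.77 and -0.71 against lines 112, 113 and 73. With library totals those medians moved to -0.30, -0.55 and -0.53. Depth and peak number also set line 119 apart, as given above, and their part in the relation with distance was not tested.

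Chromosomes held unequal shares. Chromosome 3 had the highest, 334 of 8172 distal regions (4.09%), and chromosome 6 the lowest, 77 of 8455 (0.911%). The level of weak regions, those with a mean under 2 CPM over 8 libraries, was used to see whether whole chromosomes were shifted. On chromosome 6 the median log2 ratio of line 119 to the mean of the other lines in weak regions was -0.72, the lowest of 19, against -0.23 over all autosomes. Line 112 was 0.63 above the mean of the lines in weak regions of chromosome 6 on the log2 scale, and between -0.04 and 0.30 on the other autosomes. With line 112 left out of the comparison, an alternative chosen after these values were seen, 6961 regions were private to line 119. Chromosome 6 then held 4.20% and chromosome 3 held 5.62%, against 5.49% over all autosomes. The lowest share was then on chromosome 19, 3.10%. More copies of DNA and more open chromatin on a chromosome give the same counts here, and their parts cannot be told apart.

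**Figure D4:**
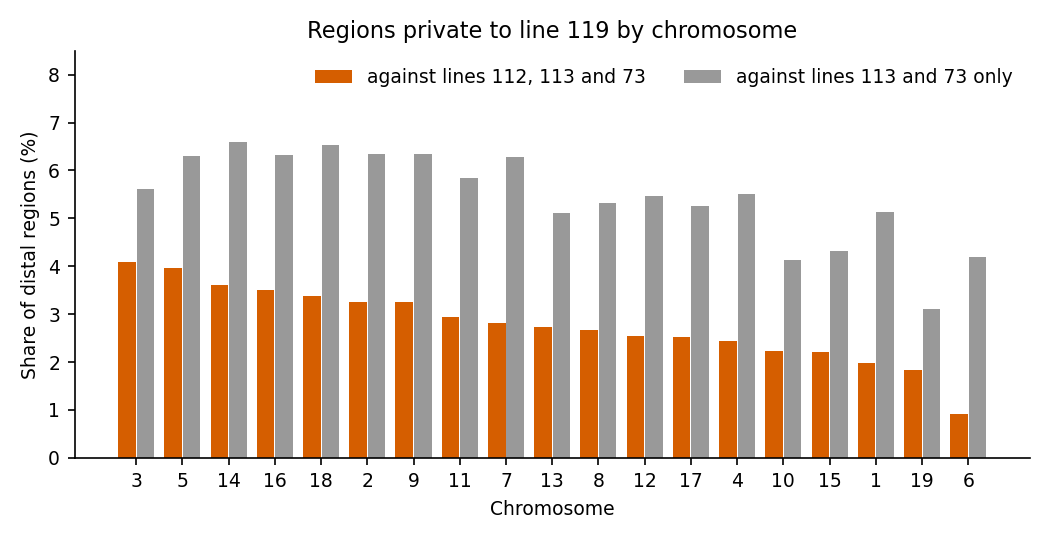
Percentage of distal regions private to line 119 on each autosome, against all 3 other lines (orange) and with line 112 left out (grey), ordered by the first. Chromosome 6 has 0.911% against 3 lines and 4.20% without line 112, while chromosome 3 has 4.09% and 5.62%.

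Members were partly grouped. Linking members separated by at most 50 kb gave 471 clusters of at least 2, which held 1123 members (31.9%), and 122 clusters of at least 3. Of the members, 31.7% had another within 50 kb, and the same share was 35.7% for the regions private to line 73. The largest cluster lay inside Fndc3b, which encodes a membrane-anchored fibronectin type III protein (chromosome 3, 27421910 to 27471711). Its 9 members within 49.8 kb summed to 125 and 133 CPM in line 119, against 15.8 and 16.3 in line 112, 19.7 and 23.4 in line 113, with 18.3 and 19.3 in line 73. The other lines had nearly equal sums there. The 3 regions in the span that were not members summed to 10.6 and 11.2 CPM in line 119 and 5.51 to 11.7 CPM elsewhere, so line 119 did not lead at those.

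A cluster of 7 lay inside Cdh13, the gene of T-cadherin, over 108 kb (chromosome 8, 118286096 to 118394418). It summed to 144 and 136 CPM in line 119, against 14.5 and 27.1 in line 112, 5.77 and 11.5 in line 113, with 5.27 and 5.07 in line 73. Its strongest member had 39.5 and 37.5 CPM in line 119 and 0.458 to 7.04 CPM elsewhere. Here the 3 regions that were not members were also highest in line 119, at 45.7 and 38.9 CPM against 1.83 to 13.7 CPM. The cluster of 6 nearest Prickle1, a planar cell polarity gene, spanned 112 kb and summed to 73.3 and 67.3 CPM in line 119 and 5.58 to 13.0 CPM elsewhere. The cluster of 6 more than 343 kb from Adgrl2, the gene of the adhesion receptor latrophilin 2, summed to 71.5 and 65.7 CPM and 6.29 to 11.1 CPM elsewhere. The fifth, of 6 at Gm7361 on chromosome 5, summed to 54.0 and 54.7 CPM in line 119 and 4.01 to 8.47 CPM elsewhere. The 17 regions in its span that were not members had 115 and 110 CPM in line 119. They had 85.2 and 99.4 CPM in line 73 and 13.8 to 25.9 CPM in the knockout lines, so both wild-type lines were high there. The Gm7361 cluster lies among near-identical gene copies, so how its reads were divided between copies is uncertain. Non-members in the span near Prickle1 summed to 74.9 and 69.0 CPM in line 119, against 22.3 to 45.2 CPM elsewhere. Those near Adgrl2 summed to 20.4 and 21.1 CPM, against 4.94 to 9.64 CPM.

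By nearest gene end, 2053 members (58.4%) lay within 100 kb of 1579 genes. Of these genes 1249 had 1 member, 240 had 2 and 90 had at least 3. After Fndc3b with 9 came Fshr (the follicle-stimulating hormone receptor gene), Pex5l (a regulator of HCN channels), Myo5b (a myosin motor of recycling endosomes), Gm7361 and Fhit (a dinucleoside triphosphate hydrolase gene at a fragile site), each with 6. Dok5 (a receptor tyrosine kinase adaptor), Sfmbt2 (a Polycomb-group gene), Zfp536 (a zinc-finger repressor) and Syndig1 (a synapse protein gene) had 5 each. The members at Fshr had 8.04 to 31.3 CPM in the lower line 119 library and at most 6.30 CPM elsewhere. Those at Sfmbt2 reached 33.8 CPM with at most 5.32 CPM elsewhere. Genes with many distal regions have more chances, and Fndc3b had 44 and Zfp536 had 42, while Sfmbt2 had 16 and Pex5l 19.

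Genes known in melanoma and in STAT3 signalling were then counted by list, each list as the share of its genes' distal regions within 100 kb that were members, beside 2.09% for all genes. Of the 268 regions of melanocyte genes, 1 was a member (0.373%), near Kit, the receptor of melanocyte precursors, with 8.57 and 7.67 CPM in line 119 and 1.35 to 2.52 CPM elsewhere. No member had Mitf, Sox10, Pax3, Tyr, Dct, Pmel or another of the 19 remaining genes of that list as its nearest gene within 100 kb. The neural crest and invasive list held 8 of 333 (2.40%), the mesenchymal matrix list 5 of 277 (1.81%) and the homeobox and T-box list 10 of 252 (3.97%). The AP-1 and Maf list held 2 of 99 (2.02%), TEAD and YAP 2 of 188 (1.06%), Runx and TGF-beta 3 of 352 (0.852%), STAT3 3 of 193 (1.55%), MAPK feedback and growth receptors 1 of 258 (0.388%), and C/EBP 0 of 32. Most of these shares rest on under 10 regions and were not tested.

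Among the neural crest genes, Sox2, a transcription factor of neural progenitors, had 2 members. The nearer, 11.7 kb away (chromosome 3, 34664113 to 34664819), had 22.4 and 21.6 CPM in line 119, against 1.00 and 4.08 in line 112, 2.98 and 4.49 in line 113, with 3.43 and 2.03 in line 73. The farther, at 98.4 kb, had 17.4 and 16.9 CPM in line 119 and 1.25 to 2.79 CPM elsewhere. A region 35.1 kb from Egfr, the epidermal growth factor receptor gene, had 23.7 and 20.7 CPM in line 119, with line 113 lowest at 0.596 and 0.225 CPM. Single members lay near Sox9 (17.7 and 16.9 CPM), Cdh2 (11.1 and 15.9), Tfap2a (9.24 and 10.3), Zeb1 (8.31 and 8.54) and Snai2 (5.63 and 4.53 in line 119). These genes encode neural crest and mesenchymal transcription factors and, for Cdh2, N-cadherin. At each of these, the other 6 libraries stayed at or below 5.56 CPM.

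The T-box gene Tbx15 held 4 members, all inside the gene, with 6.56 to 13.0 CPM in the lower line 119 library and at most 3.04 CPM elsewhere. Meis1, a homeobox cofactor gene, held 3 inside the gene, the strongest with 14.5 and 15.2 CPM in line 119, 4.12 and 4.56 in line 73 and 0.596 to 1.85 in the knockout lines. Tbx18 held 2, and 1 lay near Dlx6 with 21.2 and 23.2 CPM in line 119 and 2.19 to 5.26 CPM elsewhere. In the matrix list, a region inside Lox, a collagen cross-linking enzyme gene, had 9.91 and 11.2 CPM in line 119 and 0 to 1.11 CPM elsewhere, a ratio of 8.91. The 2 regions near Col1a2, a type I collagen gene, had 12.1 and 10.5, and 6.56 and 6.45 CPM. A region near Col3a1, a type III collagen gene, had 5.89 and 5.93 CPM, with 0 in both libraries of line 113.

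For genes of the signalling lists, a region 11.8 kb from Il6st, which encodes gp130, the shared receptor chain upstream of STAT3, had 22.2 and 19.2 CPM in line 119. The other libraries had 0.916 to 2.92 CPM there, with wild-type line 73 and knockout line 112 at like levels. A region 63.0 kb from Myc had 17.95 and 18.1 CPM in line 119 and 1.77 to 4.82 CPM elsewhere, and one inside Hif1a had 10.6 and 12.2 CPM. Near the AP-1 gene Jun a member had 23.7 and 25.8 CPM in line 119 and at most 4.08 CPM elsewhere. Inside Yap1, the Hippo pathway coactivator gene, 1 had 22.4 and 21.4 CPM, and inside Vgll3, a TEAD cofactor gene, 1 had 9.91 and 11.9 CPM and at most 1.27 CPM elsewhere. Of 2 members at Inhba, an activin subunit gene, the stronger had 18.6 and 20.05 CPM with 2.52 and 4.82 CPM in line 73.

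The gene ends next to the members had no part in the choice, and their counts came from the same libraries. For each gene the region within 1 kb of an end with the highest mean was tested in all 3 pairs of line 119 with another line, by edgeR's quasi-likelihood test with Benjamini-Hochberg adjustment. Of 1579 neighbour genes, 1232 had a tested gene end. It was higher in line 119 in all 3 pairs for 97 (7.87%) and lower in all 3 for 73 (5.93%), against 2.85% and 16.5% of the 13980 genes tested. The share higher was 2.37% for genes with no private region, 6.03% for those with 1, 12.9% for those with 2 (23 of 178) and 20% for those with at least 3 (15 of 75). The share lower was 17.5%, 6.64%, 3.93% and 1.33% in the same classes. The median log2 fold change was -0.56 for genes with no private region, -0.33 for neighbour genes and 0.53 for genes with at least 3.

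Thus, for most neighbour genes with a tested gene end, the region tested did not pass in all 3 pairs. Of the calls at neighbour genes 57.1% were higher with TMM and 42.6% with library totals (106 higher, 143 lower). With library totals 8.60% of neighbour genes were higher and 11.6% lower, against 3.01% and 24.1% of all 13980 genes. Leaving out 1 library leaves its line without a replicate, and the counts at neighbour genes are then given by direction only. Without line 112 replicate 2 the higher and the lower count both rose, and without any other library both fell. The share of all genes called moved the same way each time. The lower count fell most without either replicate of line 119, and so did the share of all genes. The median difference between neighbour and other genes was 0.23 on the log2 scale, and 0.13 after the level of non-member distal regions within 5 Mb was subtracted.

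Of the 10 genes with the most members, 9 had a tested gene end, 4 were higher in line 119 in all 3 pairs and 0 were lower. The gene end of Zfp536 had 12.1 and 13.4 CPM in line 119, against 3.26 and 2.59 in line 112, 0.795 and 1.57 in line 113, with 1.60 and 0.507 in line 73. Its log2 fold change was 2.18 (SE 0.346, adjusted p 8.62e-07) over line 112, 3.21 (SE 0.389, adjusted p 9.73e-10) over line 113 and 3.35 (SE 0.410, adjusted p 1.08e-09) over line 73 by edgeR. That of Sfmbt2 had 3.35 and 3.83 CPM in line 119 and 0 to 1.01 CPM elsewhere, with a largest adjusted p of 0.00161 by edgeR and 0.0559 by DESeq2. Without line 73 replicate 1, edgeR gave 0.0624. That of Gm7361 had 4.55 and 6.62 CPM in line 119 and 0.225 to 2.22 CPM elsewhere. At Myo5b, 14.5 and 16.0 CPM faced 4.35 to 11.5 CPM, and the largest adjusted p of 0.0186 rose to 0.0959 with DESeq2, 0.109 without line 112 replicate 1, 0.154 without line 113 replicate 1 and 0.0748 without line 119 replicate 2.

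Fndc3b, with the most members, did not follow. Its gene end had 59.8 and 51.4 CPM in line 119, against 43.8 and 30.8 in line 112, 75.8 and 93.9 in line 113, with 90.0 and 85.2 in line 73. It was higher than in line 112 (log2 fold change 0.66, adjusted p 0.00134 by edgeR) and lower than in lines 113 and 73 (-0.82 and -0.83). Pex5l had 23.7 and 20.6 CPM in line 119, between line 113 at 28.8 and 32.4 CPM and lines 112 and 73 at 0.760 to 2.97 CPM. Dok5 had like levels in lines 112, 113 and 119 (22.9 to 37.6 CPM) and 1.37 and 0.760 CPM in line 73. Syndig1 had 2.14 and 1.57 CPM in line 119, below the 5.76 to 11.01 CPM of the knockout lines.

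Of the 26 genes of the lists with a member, 24 had a tested gene end, 1 was higher in all 3 pairs and 1 lower. The higher one was Sox2. Its gene end had 30.7 and 31.9 CPM in line 119, against 1.5 and 2.59 in line 112, 13.9 and 11.7 in line 113, with 1.60 and 2.53 in line 73. The log2 fold change of line 119 was 4.08 (SE 0.338, adjusted p 1.08e-13) over line 112, 1.07 (SE 0.227, adjusted p 7.12e-05) over line 113 and 3.74 (SE 0.320, adjusted p 4.06e-14) over line 73 by edgeR. So the Sox2 gene end was open in line 113 as well, where both private regions were at 1.57 to 4.49 CPM. The lower one was Dusp6, the gene of an ERK phosphatase, with 36.8 and 32.2 CPM in line 119 against 44.9 to 58.0 CPM. That call was lost with DESeq2 (largest adjusted p 0.208) and without line 112 replicate 1 or either replicate of line 119 (0.439, 0.175 and 0.442).

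Of the 24 list genes with a tested gene end, all but Sox2 had their highest pooled level in another line. The same count was not taken over all genes, whose gene ends were also lower in line 119 by the median. Il6st had 30.0 CPM in line 119 and 46.8 in line 73, Myc 33.3 and 64.7, and Egfr 2.73 and 16.5. Jun had 71.1 CPM in line 119 and 107 in line 113, and Yap1 24.5 and 40.4. The gap was small at Col3a1, with 10.3 CPM in line 119 and 10.9 in line 73. Col1a2 had 0.536 and 0.697 CPM at its gene end in line 119 and 29.8 and 28.4 CPM in line 73 (log2 fold change -5.70, SE 0.375, adjusted p 1.41e-17 by edgeR). Lox had 5.76 and 7.32 CPM in line 119 and 32.97 and 37.0 CPM in line 73, and Tbx15 had 14.9 and 14.5 against 28.6 and 33.7 CPM. Over the knockout lines, at 5.51 to 10.8 CPM, the Tbx15 gene end was higher in line 119 (log2 fold change 1.03, adjusted p 0.00188 over line 112 and 0.79, adjusted p 0.00761 over line 113 by edgeR). Tbx18 was open in both wild-type lines, with 20.2 and 24.2 CPM in line 119 and 26.3 and 28.6 CPM in line 73, against 0.398 to 3.34 CPM in the knockout lines. Line 119 was higher there than lines 112 and 113 (log2 fold change 3.58, adjusted p 2.45e-11 and 4.46, adjusted p 1.59e-13 by edgeR) and did not pass against line 73 (-0.49, adjusted p 0.0558). With 2 lines a genotype, the split at Tbx18 is a difference between lines.

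Other distal regions near the members were more often higher in line 119 too. Of non-member distal regions less than 5 kb from a member, 554 of 1751 (31.6%) were higher in all 3 pairs. The share was 19.8% at 5 to 20 kb, 16.6% at 20 to 50 kb, 12.9% at 50 to 200 kb and 8.59% beyond 200 kb, against 11.2% of all non-member distal regions. Their median log2 fold change was 1.14, 0.66, 0.44, 0.24 and -0.15 in the same order. The share lower in all 3 pairs was 0.857% within 5 kb and 5.35% beyond 200 kb, against 4.17% of all non-member distal regions and 5.34% of all regions tested. Regions above the fold of 2 and below that of 3 are among these non-members.

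**Figure D5:**
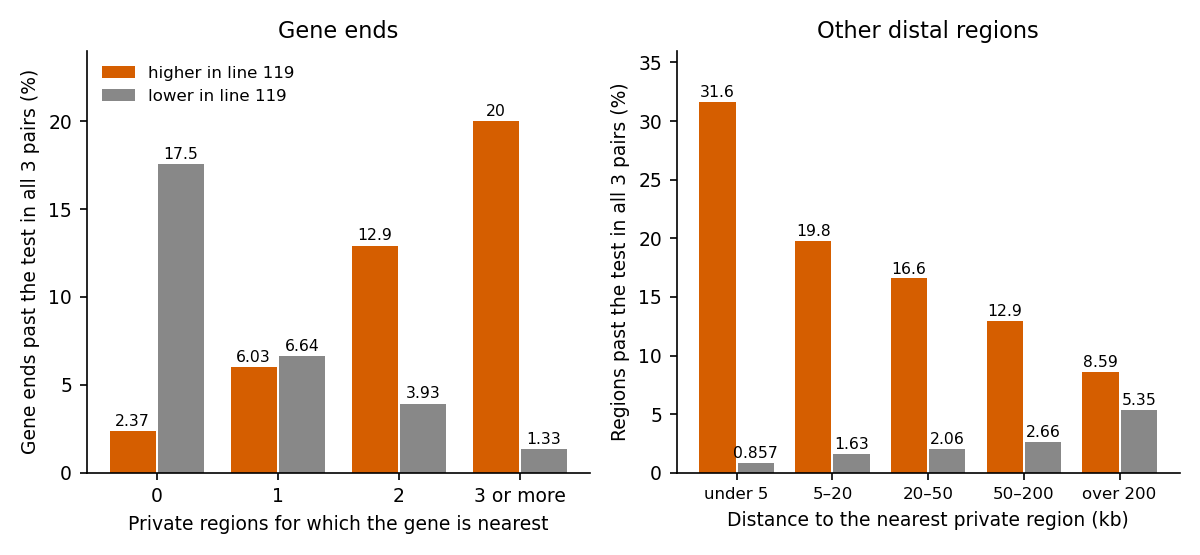
Left, percentage of tested gene ends higher (orange) or lower (grey) in line 119 in all 3 pairs with another line, by the number of private regions nearest to the gene. Right, the same for distal regions that are not private, by distance to the nearest private region. The orange share is 2.37% for genes with none and 20% for genes with at least 3, and 31.6% within 5 kb of a member and 8.59% beyond 200 kb.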

How the data were processed

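For 148664 regions and 8 libraries, raw counts were deposited in 1 table (whether reads or fragments were counted is not given in the sources used here) together with a peak list for each library. Each peak's score, its fold enrichment (a ratio) and its p and q on a −log10 scale are the authors' own values. The score and the −log10 values were not analysed further, and fold enrichment was used only to describe peaks within a list. The builds mm10 and GRCm38 and the tools Bowtie2 2.2.4, Picard 1.118 and MACS2 2.1.1.20160309 are named per the submitters' processing notes, which give no order or settings. Removal of duplicates and shifting of positions for the transposase are not given in the sources used here, so counts may not be independent molecules.

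CPM used the sum of each count column as the library total. Gene ends came from 21887 protein-coding genes of GRCm38.p6 (RefSeq). A region was given to its nearest gene end within 100 kb. Tests used edgeR 4.0.16 in R 4.3.3 (TMM, filterByExpr by line, robust glmQLFit, glmQLFTest, two-sided) on 134068 regions of all 8 libraries with 1 mean per line, Benjamini-Hochberg adjustment and a threshold of 0.05. A call in all 3 pairs needed the threshold in each pair in the same direction. Standard errors are the log2 fold change over the square root of F. The common biological coefficient of variation was 0.115. The alternatives were DESeq2 1.42.0, library totals, no filter, other rule settings and leaving out each library.

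Regions named are the 10 strongest members, those nearest each threshold, the 5 largest clusters, the 10 genes with the most members and every list gene with a member. The rule also took members with 0 counts in the other lines, which are not reported here. The members and the lists were chosen with earlier results of these data known. No genome sequence was used, so motifs were searched only in RefSeq promoter windows.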

Additional observations from a re-analysis of the deposited data

Results flagged for a closer look

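Among 44 sets of the 4 knockout libraries, 1 held a value set apart from the other 3. At the gene end of Col1a2, line 112 replicate 2 had 6.30 CPM, while the other 3 knockout libraries had 1.19 to 2.00 CPM. About 1 set in 20 is set apart in this way by chance. Line 112 replicate 2 is the shallowest library, and the part of depth was not tested. The value of line 73 there, 29.8 and 28.4 CPM, was higher in both libraries.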

How the results depend on the processing

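The number of private regions, 3515, was 7760 with a fold of 2, 948 with a fold of 5, 5348 when the 2 libraries of each other line were pooled and 6961 with line 112 left out, the last chosen after seeing the data. Without 1 library it ran from 3632 to 4986, and with TMM library sizes 3069 of the 3515 (87.3%) were kept. Leaving out a library or a line, or pooling libraries, could only add members under this rule, so those counts could not fall. DESeq2 gave 54 neighbour gene ends higher in line 119 (4.32%, against 1.48% of all genes) and 17 lower (1.36%, against 5.31%). Library totals gave 143 lower (11.6%, against 24.1% of all genes). Without 1 library the higher count was 71 to 122 and the lower 11 to 122.

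For the other lines, in the order higher in 112 than 113, lower in 112 than 113, higher in 112 than 73, lower in 112 than 73, higher in 113 than 73 and lower in 113 than 73, DESeq2 gave 39, 25, 144, 52, 181 and 156 members. Library totals gave 341, 28, 617 and 59 for the first 4. Shares of all regions under these settings are not given, so a shift in members cannot be told from 1 over all regions. Without 1 library the ranges were 54 to 153, 32 to 65, 209 to 376, 67 to 145, 199 to 381 and 196 to 345. Leaving out line 113 replicate 1 gave the lowest value of the first 2. Clusters of at least 3 numbered 43 with gaps of at most 20 kb and 230 with 100 kb, against 122.

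Replicate numbers did not pair the libraries: deviations of same-numbered libraries correlated at -0.038 to 0.004 across 134068 regions. With the replicate block, 97 neighbour gene ends were higher and 65 lower, and no count moved by over 1.5 times.

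Depth limits what can be seen in the other lines, where 1 count is 0.199 to 0.371 CPM and members have a median near 1 to 2 CPM. Differences among those lines below several counts were not detectable at this depth. The private class is a range on a continuous ratio, with 50.3% of its members between 3 and 4.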
